A study of Mus musculus with 12 samples.

Results

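Transcript levels of 10 genes that build the core of NF-κB signaling were examined in mouse mesangial cells (MMC): the subunits Nfkb1, Nfkb2, Rela and Relb, the kinase genes Chuk, Ikbkb, Ikbkg and Ikbke, and the inhibitors Nfkbia and Tnfaip3. They were chosen by symbol, for their place in the pathway, from the 25230 genes in the count files, and all 10 passed the filter on low expression that left 11527 genes for testing. MMC are the contractile pericyte-like cells of the kidney glomerulus. The cells came from pooled glomeruli of wild-type (WT) C57BL/6 mice or of the lncMGC-KO5 line, in which Cas9 and a pair of guide RNAs had removed a short stretch just downstream of the start of lncMGC, a long non-coding RNA that hosts a microRNA cluster. Cells of either genotype were serum-depleted (SD) or received transforming growth factor-β1 (TGF-β) at 10 ng/ml for 24 h, which gave 4 groups of 3 libraries each, named WT-SD and WT-TGF for wild-type and KO-SD and KO-TGF for KO5 cells. KO5 is a single mutant line, the deletion is present in every cell from birth, and the labels do not say how many mice or cultures stand behind the 3 libraries of a group. The p-values therefore measure the spread between libraries, which may be technical, and a difference between genotypes cannot be told apart from a difference between the cultures of WT and KO5 mice. lncMGC itself is not among the counted genes, so the genotype was not checked here, and the libraries are called KO as labelled.

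NF-κB is a family of dimeric transcription factors. Rela and Relb carry the activation domains, while Nfkb1 and Nfkb2 encode precursors that are cut to the DNA-binding partners. In resting cells IκBα, the product of Nfkbia, holds Rela dimers in the cytoplasm. Inflammatory signals activate the IκB kinase (IKK) complex of IKKα (Chuk), IKKβ (Ikbkb) and the scaffold NEMO (Ikbkg), which marks IκBα for destruction and so frees the factor. The slower noncanonical route runs through Map3k14 and Chuk to the Nfkb2 precursor and frees dimers of Relb. Ikbke encodes IKKε, an IKK-related kinase best known from the induction of interferon genes. Nfkbia and Tnfaip3, which encodes a ubiquitin-editing enzyme, are classic NF-κB targets that close negative feedback loops. In the glomerulus the pathway is known for chemokine and adhesion molecule genes in diabetic and immune kidney disease.

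Promoter windows of the feedback genes are shown because both hold a match to the consensus motif of NF-κB, at different letters, and their transcripts moved in opposite directions with TGF-β. Each window covers 250 bases before to 50 bases after a RefSeq transcription start (GRCm38.p6, the assembly of mm10), reads 5′ to 3′ on the strand of the gene, and has every match to the κB consensus of 10 letters on either strand in capitals. The window of Nfkbia (chr12:55492598-55492897, minus strand), that of Tnfaip3 (chr10:19015361-19015660, minus strand) and the first of Nfkb2 (chr19:46304487-46304786, plus strand) are as follows.
Nfkbia: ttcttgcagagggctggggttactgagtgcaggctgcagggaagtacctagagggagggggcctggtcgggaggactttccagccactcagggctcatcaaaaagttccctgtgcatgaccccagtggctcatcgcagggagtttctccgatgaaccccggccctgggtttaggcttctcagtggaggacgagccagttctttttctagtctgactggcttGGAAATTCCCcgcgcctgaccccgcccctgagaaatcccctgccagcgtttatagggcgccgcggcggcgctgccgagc
Tnfaip3: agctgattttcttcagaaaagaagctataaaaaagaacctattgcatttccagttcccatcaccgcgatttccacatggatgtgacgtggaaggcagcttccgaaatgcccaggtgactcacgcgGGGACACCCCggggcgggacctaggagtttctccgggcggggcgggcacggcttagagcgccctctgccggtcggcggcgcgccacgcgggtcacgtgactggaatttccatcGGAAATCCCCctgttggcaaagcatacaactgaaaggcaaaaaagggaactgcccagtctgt
Nfkb2: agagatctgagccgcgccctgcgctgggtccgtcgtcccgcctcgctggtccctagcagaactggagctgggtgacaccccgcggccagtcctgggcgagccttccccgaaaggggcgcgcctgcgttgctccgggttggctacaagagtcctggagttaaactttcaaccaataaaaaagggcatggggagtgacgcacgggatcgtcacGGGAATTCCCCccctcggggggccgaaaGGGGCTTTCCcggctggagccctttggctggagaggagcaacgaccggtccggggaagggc
The Nfkbia window had 1 match, GGGAATTTCC on the strand opposite to the gene, at positions -29 to -20 counted from the start base as 0. In the Tnfaip3 window there were 2 matches, GGGACACCCC on the strand of the gene at -125 to -116 and GGGGATTTCC on the other strand at -12 to -3. The first Nfkb2 window had 4 matches, of which 3 overlapped in the run of 11 capitals (GGGAATTCCC, which reads the same on both strands, and GGGGAATTCC shifted by 1 base) and the last was GGGGCTTTCC at -11 to -2. The other windows of Nfkb2 that RefSeq lists also held a match, and the other window of Tnfaip3 (chr10:19011914-19012213) held none. RefSeq windows were found for 7 members, 13 windows in all. No match was found in those of Rela, Chuk, Ikbkg and Ikbke. Nfkb1, Relb and Ikbkb had no window under their symbols, so their promoters were not searched. Of all 32851 RefSeq windows 4.51% held a match, and so did a window of 6.27% of the 8983 tested genes that had one. A match is a stretch of letters and not a measured binding site, and these counts hold no data on binding.

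Each library had between 19898050 and 22827706 counts on genes. Levels are given as CPM, counts scaled to a library of fixed size, with library sizes scaled by the trimmed mean of M-values (TMM), as the mean ± SD of 3 libraries. The members were well covered, with 166 to 4868 counts in a library, and the coefficient of variation within a group was between 0.369% and 6.48%. The TMM factors were 1.09 to 1.10 in WT-SD and 0.899 to 0.904 in KO-TGF, so small changes with TGF-β depend on the scaling. Using total counts as library sizes instead moved the median log2 fold change of all tested genes with TGF-β from -0.01 to -0.16 in WT and from -0.03 to -0.23 in KO. The smooth muscle genes Acta2 and Tagln were above 698 CPM in all libraries and differed widely between groups, as given below with Ikbke, whereas the mesangial marker Itga8 was at 0.588 to 3.45 CPM and Thy1 at 0.0536 CPM or less. The podocyte slit diaphragm gene Nphs1 had at most 0.0473 CPM. Of 6 podocyte markers 3 were below 1 CPM in WT-SD, whereas Synpo, Wt1 and Podxl were there at means of 247, 98.9 and 97.9 CPM.

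Per kilobase of exon, Nfkbia had the highest level of the 10 in WT-SD at 76.9 ± 0.779 RPKM, followed by Rela at 35.9 ± 0.599 RPKM. Ikbkg, Nfkb2 and Tnfaip3 lay between 20.1 and 23.2 RPKM, Nfkb1, Chuk and Relb between 10.3 and 14.2 RPKM, and Ikbke and Ikbkb were lowest at 5.02 and 3.33 RPKM. Within this order Ikbkg and Nfkb2 overlapped (22.4 to 23.7 and 21.3 to 22.8 RPKM). In KO-TGF the levels of Nfkbia and Rela had come close, at 33.6 ± 0.603 and 31.2 ± 0.609 RPKM. The order rests on the length taken for a gene: with the longest transcript in place of the union of all exons, Nfkb1 moved from rank 6 to rank 2 in WT-SD and Ikbkb from rank 10 to rank 8.

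**Figure D1:**
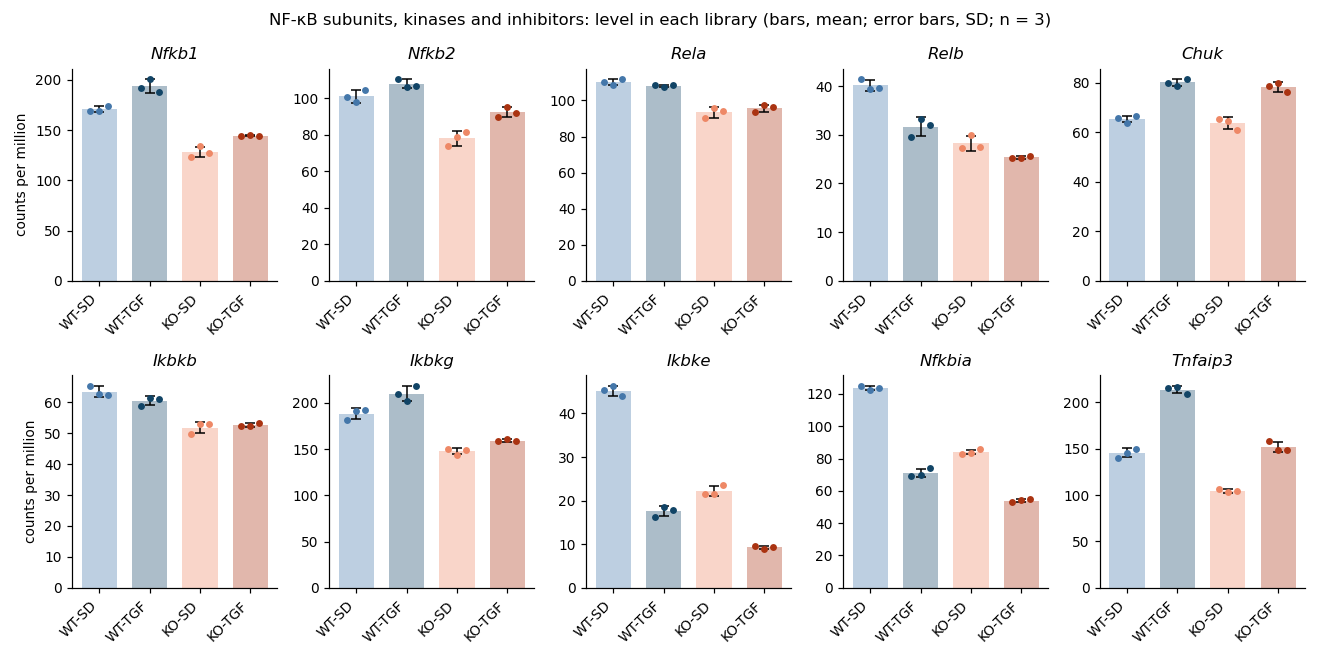
Level of each of the 10 genes in CPM (vertical axis, linear and from 0) in the 4 groups. Bars are means, error bars the SD and points the 3 libraries of a group. Ikbke and Nfkbia are highest in WT-SD and lowest in KO-TGF, Tnfaip3 is highest in WT-TGF, and Chuk is at the same height in both genotypes.

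The first comparison asked how the members differed between libraries labelled KO and WT. Of the 10 genes, 9 had lower counts in the libraries labelled KO when serum-depleted and 9 when treated with TGF-β, the same 9 in both conditions, and none was higher. Among all tested genes 25.2% were lower and 30.9% higher in KO-SD, 27.8% were lower and 27.2% higher in KO-TGF, and 18.3% were lower in both conditions. The median log2 fold change of the members was -0.39 in SD and -0.36 with TGF-β, against 0.02 and 0.00 over all tested genes. The conditions share no library, but the members were chosen with earlier results known. The exception was Chuk, at 63.6 ± 2.42 CPM in KO-SD against 65.3 ± 1.33 CPM in WT-SD (log2 fold change -0.04, 95% interval -0.12 to 0.04) and at 78.3 ± 1.90 against 80.1 ± 1.43 CPM with TGF-β (-0.03, -0.11 to 0.04). With total counts as library sizes Chuk too was called lower in KO (-0.11 and -0.15). All tested genes then split into 2445 higher and 4191 lower in SD and 1643 and 5406 with TGF-β. The other 9 members were called lower in both conditions under every alternative tried.

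Most of these differences were modest. Serum-depleted KO libraries were lower than WT by 15.3% (Rela) to 51% (Ikbke), and TGF-β-treated ones by 11.5% to 47%, with the same genes at the ends. A difference of over 2-fold was reached by Ikbke in SD alone, where 3.24% of all tested genes were lower by as much. With TGF-β 4.68% of all tested genes and no member were. In bulk libraries fewer cells of a type and less RNA per cell cannot be told apart. The plot of KO against WT shows that the 95% intervals of the 9 genes lie wholly below 0 in both conditions.

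**Figure D2:**
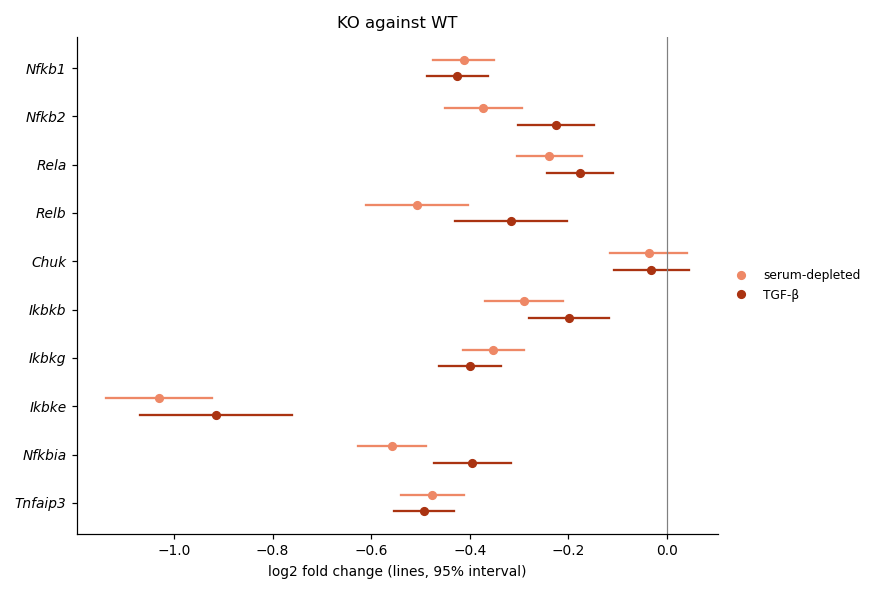
Log2 fold change of the libraries labelled KO against WT (horizontal axis) for each gene, serum-depleted in light and TGF-β-treated in dark, with 95% intervals as lines. The values of 9 genes lie between -1.03 and -0.18, and the intervals of Chuk include 0 in both conditions.

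The second comparison asked how the members answered TGF-β. In WT, 5 of the 10 genes rose (Nfkb1, Nfkb2, Chuk, Ikbkg and Tnfaip3) and 3 fell (Relb, Ikbke and Nfkbia), while over all tested genes 36% rose and 36.4% fell. In KO the same 5 rose and the same 3 fell, against 34.9% and 39.1% of all tested genes. Over all genes 30.1% rose in both genotypes and 31.9% fell in both, so the number of members that moved is near the background. The split depends on the scaling. With total counts as library sizes 2 members rose (Chuk and Tnfaip3) and 5 fell in WT, and 2 rose and 6 fell in KO, where all tested genes then split into 2642 up and 6054 down in WT and 2298 up and 6714 down in KO. The members' median was then -0.12 in WT and -0.13 in KO, both above the all-gene medians given above. The rises of Chuk and Tnfaip3 and the falls of Relb, Ikbke and Nfkbia kept their direction under both scalings and in DESeq2. Of these, the fall of Relb in KO lost its call in DESeq2 (adjusted p = 0.0732). The rises of Nfkb1, Nfkb2 and Ikbkg lost their call or turned under total counts.

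**Figure D3:**
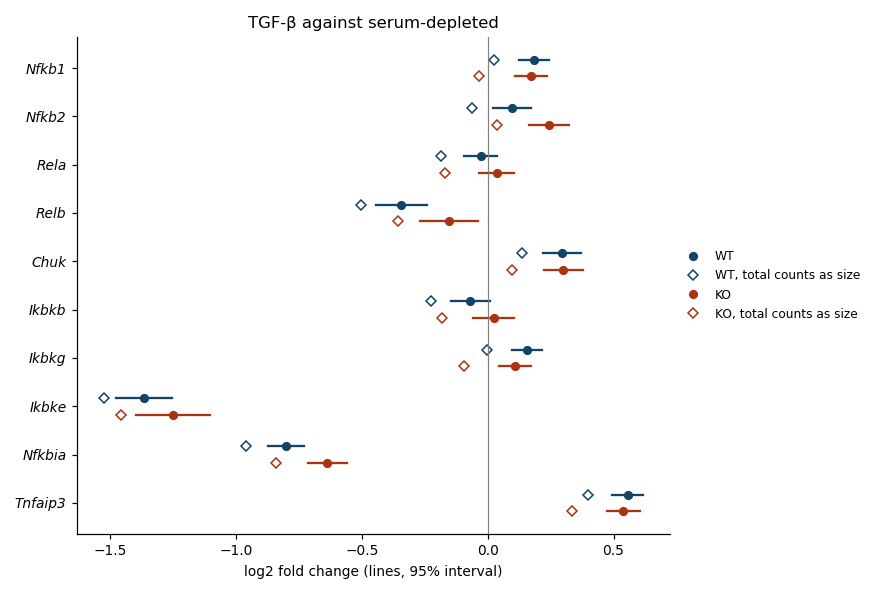
Log2 fold change with TGF-β against the serum-depleted state (horizontal axis) for each gene in WT (blue) and KO (red). Filled points with lines are TMM-scaled values with 95% intervals, and open diamonds are the values with total counts as library sizes, which sit lower for every gene and cross 0 for Nfkb2 in WT, for Nfkb1, Rela and Ikbkb in KO and for Ikbkg in both.

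Among the subunits, Nfkb1 (NCBI gene 18033, chr3:135584655-135691969, minus strand) was at 169, 169 and 174 CPM in the WT-SD libraries and rose to 192, 201 and 188 CPM with TGF-β. The KO-SD libraries had 124, 134 and 127 CPM and those of KO-TGF 144, 145 and 144 CPM. None of the 4 groups overlapped, and the order was WT-TGF, WT-SD, KO-TGF, KO-SD. The log2 fold change in KO was -0.41 (SE 0.0304, adjusted p = 5.83e-13 by edgeR's quasi-likelihood test) in SD and -0.43 (SE 0.0303) with TGF-β. Its answer to TGF-β was 0.18 in WT and 0.17 in KO.

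Nfkb2 (NCBI gene 18034, chr19:46300994-46312400, plus strand) had the same order of groups. Its WT libraries held 100, 97.8 and 105 CPM when serum-depleted and 111, 106 and 107 CPM with TGF-β, and its KO libraries 73.7, 78.8 and 81.4 CPM and 89.8, 95.1 and 91.8 CPM. Against WT the log2 fold change in KO was -0.37 (SE 0.0381) in SD and -0.23 (SE 0.0379) with TGF-β. The TGF-β response was larger in KO than in WT by 0.15 on the log2 scale (SE 0.0537, adjusted p = 0.0430 by edgeR). This difference did not pass the threshold with total counts, with a filter on CPM, with no filter, or when 1 of 5 libraries (replicate 1 or 3 of WT-SD, 2 or 3 of WT-TGF, 1 of KO-SD) was left out, over a range of 0.11 to 0.21. The rise in WT was itself small, at 0.10 (adjusted p = 0.0214 by edgeR), and missed the threshold in DESeq2 (adjusted p = 0.0624) and without replicate 1 or 2 of WT-SD, replicate 1 of WT-TGF or any of the KO-TGF replicates, with values of 0.07 to 0.09. An exon of Psd on the opposite strand covers 299 bases of Nfkb2, which the strand-specific counting keeps apart.

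Rela (NCBI gene 19697, chr19:5637442-5648134, plus strand), the main activating subunit, lay between 108 and 112 CPM in all 6 WT libraries, between 90.2 and 95.8 CPM in KO-SD and between 93.7 and 97.3 CPM in KO-TGF. SD and TGF-β libraries overlapped within each genotype, and the 95% interval of the log2 fold change with TGF-β was -0.09 to 0.04 in WT and -0.03 to 0.10 in KO. The genotypes did not overlap, with a log2 fold change in KO of -0.24 (SE 0.0324) in SD and -0.18 (SE 0.0330) with TGF-β. With total counts as library sizes Rela was called lower with TGF-β in both genotypes, at -0.19 in WT and -0.17 in KO, next to all-gene medians of -0.16 and -0.23.

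Relb (NCBI gene 19698, chr7:19606217-19629438, minus strand), the noncanonical partner of Nfkb2, fell with TGF-β where Nfkb1 and Nfkb2 rose and Rela did not pass the test. It was at 41.5, 39.3 and 39.6 CPM in serum-depleted WT cells and fell to 29.5, 33.3 and 32.1 CPM with TGF-β, a log2 fold change of -0.34 (SE 0.0498, adjusted p = 3.91e-07 by edgeR). The KO-SD libraries, at 27.4, 30.0 and 27.4 CPM, overlapped with WT-TGF, and KO-TGF was lowest at 25.2, 25.2 and 25.7 CPM. In KO the fall with TGF-β was -0.15 (adjusted p = 0.0158 by edgeR), which missed the threshold in DESeq2 (adjusted p = 0.0732) and without replicate 2 of KO-SD or replicate 1 or 2 of KO-TGF (-0.13 to -0.11). The responses differed by 0.19 between the genotypes (adjusted p = 0.0636 by edgeR), and by 0.23 with an adjusted p of 0.0284 to 0.0392 when replicate 2 of WT-TGF, 2 of KO-SD, 1 of KO-TGF or 2 of KO-TGF was left out.

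The kinase genes differed from each other in pattern. Chuk (NCBI gene 12675, chr19:44073334-44107505, minus strand), the IKKα gene, rose by the same amount in both genotypes, in WT libraries out of a range of 63.8 to 66.4 CPM into one of 78.8 to 81.6 CPM, and in KO libraries out of 60.9 to 65.5 CPM into 76.2 to 80 CPM. The log2 fold change was 0.30 (SE 0.0373) in WT and 0.30 (SE 0.0382) in KO, and the 95% interval of their difference was -0.10 to 0.11. It was thus the only member whose libraries were set apart by TGF-β and overlapped between genotypes.

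Ikbkb (NCBI gene 16150, chr8:22659205-22706589, minus strand), the IKKβ gene, showed the opposite arrangement. WT libraries lay at 62.3 to 65.4 CPM without and 58.9 to 61.6 CPM with TGF-β, KO libraries at 49.8 to 52.9 and 52.4 to 53.3 CPM. The genotypes did not overlap (log2 fold change in KO of -0.29 in SD and -0.20 with TGF-β), while the answer to TGF-β did not pass the test in WT (-0.07, 95% interval -0.15 to 0.01) or in KO (0.02, -0.06 to 0.11). Leaving out any 1 of the KO-TGF libraries made the WT value a call, at -0.09, and with total counts Ikbkb was called lower with TGF-β in both genotypes (-0.23 and -0.18). Without replicate 1 of KO-SD the value in KO was -0.01.

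Ikbkg (NCBI gene 16151, chrX:74393233-74456792, plus strand), the scaffold gene, followed Nfkb1. WT libraries had 181 to 192 CPM without and 202 to 219 CPM with TGF-β, and KO libraries 144 to 150 and 158 to 161 CPM, with no overlap between groups. The log2 fold change in KO was -0.35 (SE 0.0305) in SD and -0.40 (SE 0.0305) with TGF-β. Its rise with TGF-β was 0.16 in WT and 0.11 in KO, and with total counts these became -0.0022 and -0.10. G6pdx on the opposite strand shares 418 exon bases with Ikbkg.

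Ikbke (NCBI gene 56489, chr1:131254600-131279601, minus strand) moved most of the 10. The WT-SD libraries held 45.5, 46.3 and 44 CPM and those of KO-SD 21.5, 21.5 and 23.5 CPM. After TGF-β the WT libraries held 16.3, 18.5 and 17.8 CPM and the KO libraries 9.64, 8.88 and 9.41 CPM. No group overlapped with the next, and the mean of WT-SD was 4.86 times that of KO-TGF. TGF-β lowered it 2.58-fold in WT (log2 fold change -1.37, SE 0.0547, adjusted p = 6.44e-20 by edgeR) and 2.38-fold in KO (-1.25, SE 0.0720). Of all tested genes 5.78% fell more than 2-fold in WT and 9.14% in KO. In the libraries labelled KO it was 2.04-fold lower in SD (-1.03, SE 0.0524) and 1.89-fold lower with TGF-β (-0.92, SE 0.0752). The TGF-β responses differed by 0.11 between the genotypes (95% interval -0.08 to 0.31). Exons of the antisense genes Gm28914 and Gm28913 cover 159 and 65 bases of Ikbke on the other strand.

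Markers of other cells shifted between the same groups. The summed level of 12 macrophage markers, of which 4 were tested, ran from 37.4 to 40.7 CPM in WT-SD over 20.3 to 24.3 CPM with TGF-β and 8.13 to 9.77 CPM for KO-SD down to 2.35 to 2.68 CPM for KO-TGF, led by Lyz2 in WT and Cd14 in KO. Adgre1 was at 0 counts in all 6 libraries labelled KO, where a count of 3 would be at most 0.161 CPM, and 7 of the 12 were at 0 in all KO-SD libraries. Ikbke was above this sum in WT-SD, KO-SD and KO-TGF and below it in WT-TGF, where Ikbke was at 16.3 to 18.5 CPM. The sum of 8 tubular markers was 305 to 318 CPM for WT-SD, 167 to 181 CPM for KO-SD, 132 to 145 CPM for WT-TGF and 70.4 to 73.1 CPM for KO-TGF, which is the order of groups of Ikbke and of Nfkbia. Pax8, Lrp2 and Cdh16, the 3 of them that were tested, were lower in all 4 contrasts, whereas Slc12a1 went the other way, at a mean of 0.358 and 0.843 CPM in WT cells without and with TGF-β and of 1.25 and 3.05 CPM in KO cells, and Slc34a1 and Umod were at 0 in all 12 libraries. Podocyte markers moved in both directions with TGF-β. Their sum over 6 genes was 439 to 447 CPM without and 447 to 465 CPM with it in WT cells, and 214 to 222 and 203 to 218 CPM in KO cells. Synpo rose with TGF-β in both genotypes while Wt1 and Podxl fell, and all 3 were lower in KO. The 7 endothelial markers summed to at most 1.21 CPM and the 5 lymphocyte markers to at most 0.105 CPM. The sum of 9 mesangial and smooth muscle markers moved the opposite way to Ikbke, at 2658 to 2807 CPM for WT-SD, 5987 to 6132 CPM for WT-TGF, 5192 to 5366 CPM for KO-SD and 11549 to 11627 CPM for KO-TGF, and of the 7 tested 6 rose and 1 fell with TGF-β in either genotype, 6 were higher and 1 lower in KO when serum-depleted, and 5 higher and 2 lower with TGF-β. Acta2 led it, at a mean of 1567 and 2930 CPM in WT cells and of 3249 and 6287 CPM in KO cells, while Des was at 7.67 and 5.62 CPM in WT and at 0.529 and 0.247 CPM in KO. The part of any of these cells in the results on the members was not tested.

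The feedback inhibitors moved in opposite directions with TGF-β. Nfkbia (NCBI gene 18035, chr12:55489409-55492647, minus strand) had 125, 123 and 123 CPM in serum-depleted WT cells and fell to 69.4, 69.5 and 74.2 CPM with TGF-β. The KO libraries held 82.9, 83.5 and 85.8 CPM before and 53, 54.1 and 55 CPM after TGF-β. As for Ikbke no group overlapped with the next, in the order WT-SD, KO-SD, WT-TGF, KO-TGF. The log2 fold change with TGF-β was -0.80 (SE 0.0345, adjusted p = 4.08e-19 by edgeR) in WT and -0.64 (SE 0.0377) in KO, and that in KO against WT was -0.56 (SE 0.0338) in SD and -0.39 (SE 0.0385) with TGF-β.

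The fall of Nfkbia with TGF-β was smaller in KO than in WT by 0.16 on the log2 scale (SE 0.0513, adjusted p = 0.0172 by edgeR). Over all tested genes 8.68% had a difference of responses in this direction and 16.6% in the other, and among the members only Nfkbia and Nfkb2 did, both in this direction. For Nfkbia the difference missed the threshold with total counts (0.12, adjusted p = 0.0859), with no filter (0.15, adjusted p = 0.0515) and without replicate 1 or 2 of WT-TGF (adjusted p of 0.0573 and 0.0522), and lay between 0.14 and 0.22 when a library was left out.

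Tnfaip3 (NCBI gene 21929, chr10:19000910-19015410, minus strand) rose with TGF-β. WT libraries went from 140, 146 and 150 CPM to 216, 217 and 209 CPM, a rise of 47% (log2 fold change 0.56, SE 0.0296, adjusted p = 9.25e-17 by edgeR). KO libraries rose by 45.2%, from 107, 103 and 104 CPM to 158, 149 and 149 CPM, which brought KO-TGF to the level of WT-SD, with overlapping libraries. The responses differed by -0.02 between the genotypes (95% interval -0.11 to 0.07). In KO against WT the log2 fold change was -0.48 (SE 0.0315) in SD and -0.49 (SE 0.0299) with TGF-β.

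Ratios of counts within a library do not depend on the scaling, and 4 of them were followed. The ratio of Nfkbia to Rela, inhibitor to bound subunit, was 1.10 to 1.13 in WT-SD, 0.639 to 0.685 in WT-TGF, 0.872 to 0.920 in KO-SD and 0.555 to 0.571 in KO-TGF. The 4 groups did not overlap. On the log2 scale the ratio changed with TGF-β by -0.77 in WT and -0.67 in KO, and in KO against WT by -0.32 in SD and -0.22 with TGF-β.

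Chuk to Ikbkb, the balance of the catalytic IKK genes, ran the opposite way, at 1.002 to 1.07 in WT-SD, 1.28 to 1.36 in WT-TGF, 1.15 to 1.32 in KO-SD and 1.43 to 1.53 in KO-TGF. It was thus raised both by TGF-β and in the libraries labelled KO. Relb to Rela was highest in WT-SD at 0.353 to 0.376 and lowest in KO-TGF at 0.259 to 0.269, with WT-TGF (0.271 to 0.310) and KO-SD (0.291 to 0.313) between. The ratio of Nfkb2 to Nfkb1 moved least, with 0.578 to 0.601 in WT-SD, 0.527 to 0.576 in WT-TGF, 0.589 to 0.639 in KO-SD and 0.624 to 0.656 in KO-TGF. In 14 of the 16 comparisons of these ratios the libraries did not overlap, which gives p = 0.1 in a two-sided exact permutation test, the smallest that 3 against 3 libraries allow (adjusted p = 0.114 over 16 tests). The design cannot reach 0.05. The exceptions were Nfkb2 to Nfkb1 in KO-TGF against KO-SD (exact permutation p = 0.3) and in KO-SD against WT-SD (exact permutation p = 0.5). How often the ratios of other gene pairs separate in this way was not counted.

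**Figure D4:**
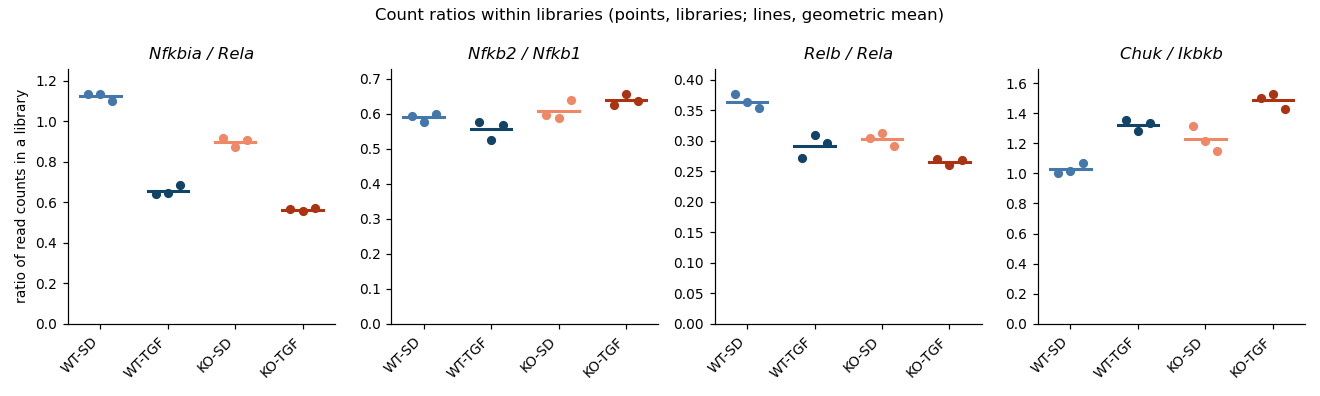
Ratios of read counts of gene pairs in each library (vertical axis, linear and from 0) for the 4 groups, with points for libraries and lines for geometric means. Nfkbia to Rela is highest in WT-SD (1.10 to 1.13) and lowest in KO-TGF (0.555 to 0.571). Chuk to Ikbkb is lowest in WT-SD (1.002 to 1.07) and highest in KO-TGF (1.43 to 1.53).

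The genes with the pattern across the 12 libraries most like that of a member were sought for the members of widest range, Ikbke and Nfkbia, by the root mean square difference of centred log2 CPM over 11527 genes. Nearest to Ikbke were Neat1 (0.0949), Cc2d2a (0.104) and Lacc1 (0.115), and nearest to Nfkbia were Tcp11l2 (0.0542), Vps13c (0.0548) and Irs2 (0.0597). No other member was among them.

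Around the members, 47 other genes of the pathway were followed, from receptors and adaptors to ubiquitin enzymes, and 45 of them were tested. With TGF-β 13 rose and 19 fell in WT, and 12 rose and 21 fell in KO. The medians were -0.08 and -0.03 on the log2 scale, beside -0.01 and -0.03 over all tested genes. Of all tested genes 36% rose and 36.4% fell in WT, and 34.9% rose and 39.1% fell in KO. In the libraries labelled KO 10 were higher and 21 lower in SD, and 9 higher and 20 lower with TGF-β, with medians of -0.10 in both. Over all tested genes the medians were 0.02 and -0.0036. There 30.9% were higher and 25.2% lower in SD, and 27.2% higher and 27.8% lower with TGF-β. With total counts as library sizes the TGF-β splits of the 45 genes became 6 up and 27 down in WT and 3 and 33 in KO. Those of KO against WT became 5 and 25 in SD and 2 and 28 with TGF-β. All tested genes then split into 2445 higher and 4191 lower in SD and 1643 and 5406 with TGF-β. Among the members 9 of 10 were lower in KO, and among these 45 genes 21 and 20 were; the difference between the lists was not tested.

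Pdlim2, which promotes the destruction of nuclear Rela, was lower in all 4 contrasts, with TGF-β lowering it from 25.6 ± 1.32 to 14.8 ± 1.09 CPM in WT cells and from 13 ± 1.14 to 4.26 ± 0.444 CPM in KO cells. Among the other genes named by size of change, 4 were also lower in every contrast. Nfkbie, the IκBε gene, was at 53.3 ± 2.50 and 38.1 ± 2.28 CPM in WT cells without and with TGF-β, and at 30.0 ± 2.04 and 18.8 ± 0.483 CPM in KO cells. Nfkbiz, a nuclear IκB-like cofactor, was at 129.7 ± 1.42, 82.5 ± 0.0729, 108 ± 1.28 and 55.4 ± 1.88 CPM in the same order. Bcl3, a nuclear coactivator, was at 32.5 ± 2.30, 18.7 ± 2.50, 24.0 ± 1.28 and 11.2 ± 0.928 CPM, and Birc3, a ubiquitin ligase of the receptor complex, at 33.5 ± 1.04, 20.7 ± 1.44, 17.3 ± 1.71 and 11.6 ± 0.441 CPM. All of these changes with TGF-β and in KO against WT passed the test, with log2 fold changes from -1.79 to -0.26.

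In the other direction, Map3k14, the kinase of the noncanonical route, went from 14.9 ± 0.853 to 25.8 ± 1.71 CPM with TGF-β in WT cells (log2 fold change 0.79) and from 13.9 ± 0.726 to 19.6 ± 0.41 CPM in KO cells (0.50). Between genotypes it differed with TGF-β (-0.40), while its value in SD did not pass the test (-0.10). Otud7b, a deubiquitinase that acts on the same route, rose from 153 ± 3.09 to 194 ± 0.793 CPM in WT cells and from 139 ± 2.87 to 196 ± 3.52 CPM in KO cells. Traf5, a receptor adaptor, was higher in KO in SD (11.1 ± 0.802 against 8.35 ± 0.629 CPM) and with TGF-β (12.4 ± 0.608 against 9.65 ± 0.404 CPM).

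Of 42 genes known as NF-κB targets 38 were tested, and in each contrast more were called lower than higher. With TGF-β 12 rose and 24 fell in WT, and 13 rose and 20 fell in KO, with medians of -0.57 and -0.59 on the log2 scale, beside -0.01 and -0.03 over all tested genes, of which 36.4% and 39.1% fell. In KO against WT 9 were higher and 26 lower in SD, and 5 higher and 27 lower with TGF-β, with medians of -0.47 and -0.56, beside 0.02 and 0.00 over all tested genes, of which 25.2% and 27.8% were lower. Whether the list differs from other genes was not tested. Scaling by total counts gave 11 up and 24 down, 11 and 23, 8 and 27, and 4 and 31 in the same order. Over all tested genes it gave 2642 up and 6054 down, 2298 and 6714, 2445 and 4191, and 1643 and 5406. The list is broad, and many of its genes answer to other factors as well.

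Of the targets named by size of change, the chemokine gene Cxcl1 fell from 178 ± 0.662 to 57.9 ± 3.83 CPM in WT cells and from 96 ± 6.86 to 11.8 ± 1.13 CPM in KO cells. Cxcl5 stood at 21 ± 2.05 CPM in serum-depleted WT and 6.39 ± 0.918 CPM in serum-depleted KO cells, and with TGF-β at 0.593 to 0.892 CPM in WT and at 0 to 2 counts in a library in KO. Vcam1, which binds leukocytes, went from 95.7 ± 2.61 to 18.2 ± 1.5 CPM in WT cells and from 76.2 ± 4.64 to 12.1 ± 0.635 CPM in KO cells. Icam1, of like function, went from 19 ± 0.895 to 4.98 ± 0.598 CPM and from 9.29 ± 0.776 to 1.73 ± 0.525 CPM. Cxcl1, Cxcl5, Vcam1 and Icam1 were lower in all 4 contrasts, as were Lcn2, Nos2 and Ccnd1 and, among the members, Nfkbia, Ikbke and Relb. Another chemokine gene, Cx3cl1, rose with TGF-β, by 0.92 in WT and 1.26 in KO. Lcn2, an iron-carrier binding protein of injured kidney, was lower in KO cells with 60.3 ± 4.22 against 205 ± 7.76 CPM in SD and 25.3 ± 0.987 against 105 ± 5.64 CPM with TGF-β.

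Other targets rose. Ptgs2, the inducible prostaglandin synthase, went from 76.2 ± 2.6 to 513 ± 38.1 CPM in WT cells and from 147 ± 9.11 to 1023 ± 37.1 CPM in KO cells, and so was higher both with TGF-β (log2 fold change 2.75 in WT and 2.79 in KO) and in KO (0.95 in SD and 0.997 with TGF-β). The cytokine Il6 was at 0.433 ± 0.142, 4.23 ± 0.652, 0.762 ± 0.116 and 8.21 ± 0.223 CPM in WT cells without and with TGF-β and in KO cells likewise, with values of 3.27 and 3.42 for TGF-β. Its difference between KO-SD and WT-SD (0.81, adjusted p = 0.0391 by edgeR) was not past the threshold in DESeq2, with total counts, or without replicate 1 or 2 of WT-SD, 1 or 2 of KO-SD or any of KO-TGF (0.63 to 0.80). Lif, a cytokine of the same receptor family, rose by 2.08 in WT and 1.84 in KO. Falls of Nfkbia, Cxcl1 and Vcam1 thus stood beside rises of Tnfaip3, Ptgs2 and Il6 in the same libraries.

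**Figure D5:**
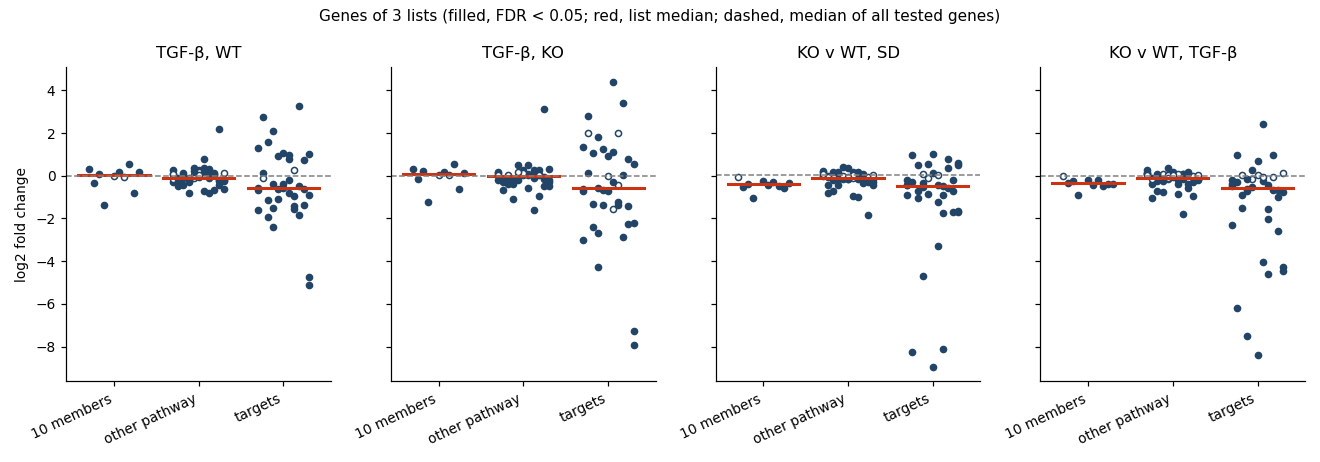
Log2 fold change (vertical axis) of each tested gene of the 10 members, 45 other pathway genes and 38 targets in the 4 contrasts, filled where the adjusted p is below 0.05, with red lines at list medians and a dashed line at the median of all tested genes. The members lie below the dashed line in both contrasts of KO against WT, with medians of -0.39 and -0.36, and the targets spread widest.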

How the data were processed

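RNA-seq libraries of MMC, 3 in each of 4 groups, were analysed. The authors made mRNA libraries, mapped their single-end reads to mm10 (TopHat) and counted them by strand on RefSeq genes (HTSeq), and the deposited values are these raw counts per gene, not normalized. Counts with no gene, 10.3% to 15.4% of a library, and the other summary lines were left out. RPKM values were computed here over the union of exons in GENCODE vM21 (24702 of 25230 genes had a length), and 11527 genes with RPKM over 1 in at least 1 library were tested, a filter taken from the study's methods. After TMM scaling, the quasi-likelihood test of edgeR 4.0.16 in R 4.3.3 was run on one fit of 12 libraries with a mean for each group, and p-values were adjusted over all tested genes (Benjamini-Hochberg, FDR of 5%). Contrasts compared TGF-β with SD within a genotype, the genotypes within a condition, and the TGF-β responses of the genotypes (KO minus WT). On data simulated for WT-TGF against WT-SD with 11527 genes, 98% to 100% of 50 changed genes were recovered at each fold size, the smallest of 0.5 on the log2 scale. The simulation changed as many genes up as down and gave all genes the same spread. Most members changed by less than 0.5 with TGF-β, and recovery of such changes was not tested.

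The members and all gene lists were chosen with earlier results of these data known. Named from the lists were the 3 genes with the largest change in each direction per contrast at an FDR of 5% and with a mean of 5 CPM or more in either group, and the text gives a part of them. κB matches were searched on both strands of RefSeq promoter windows. Same-numbered libraries deviated together weakly at most (r of -0.07 to 0.18, over 0.1 in 2 of 18 pairs). Pairs with different numbers had r of -0.16 to 0.12, over 0.1 in 1 of 36. No 2 libraries agreed within counting noise. Alternatives were total counts as library sizes, DESeq2 1.42.0 without independent filtering, other filters, a fit of the compared groups alone, a replicate block, and each library left out.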

Additional observations from a re-analysis of the deposited data

Results flagged for a closer look

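By edgeR's test of the difference itself, with an adjusted p below 0.05, the TGF-β response differed between the genotypes for some genes of each list. They were 2 of 10 members, 7 of 45 other pathway genes and 19 of 38 targets tested. In KO minus WT, 8.68% of all tested genes were called higher and 16.6% lower. The lists had, in the same order, 2 and 0 members, 2 and 5 other pathway genes, and 4 and 15 targets. Whether a list differs from other genes was not tested. Differences are log2 values of the response in KO minus that in WT. Among the members they were 0.15 for Nfkb2, a larger rise in KO, and 0.16 for Nfkbia, a smaller fall in KO, and both calls were lost under some alternatives.

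Among the other pathway genes the rise of Map3k14 was smaller in KO by 0.29 (difference -0.29, not past the threshold in DESeq2), that of Tnfrsf1b differed by -0.26 (its rise in KO, 0.10, became -0.10 with total counts), and those of Otud7b and Fbxw11 were larger in KO by 0.15 and 0.14 (for Fbxw11 the rise in WT, 0.12, became -0.04 and the difference lost its call with total counts). The falls were deeper in KO for Pdlim2 (-0.81), Nfkbiz (-0.31) and Bcl3 (-0.31, not past the threshold in DESeq2).

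Among the targets the difference was largest for Mmp9, at 3.62, from 0.438 ± 0.131 to 9.35 ± 0.955 CPM in KO cells against 1.02 ± 0.361 to 1.76 ± 0.0899 CPM in WT cells. The falls were deeper in KO for 7 further genes, with differences of -1.40 for Cxcl1, -1.03 for Ptx3, -1.29 for Mmp3, -0.88 for Nos2, -0.80 for Ccnd1, -0.28 for Lcn2 and -0.27 for Vcam1. The fitted difference of Cxcl5 was -2.54, a value that depends on the prior count because the KO-TGF libraries held 0 to 2 counts. Rises were smaller in KO for Myc (-0.50), Vegfc (-0.49) and Lif (-0.25). The differences of Lif and Vcam1 were not past the threshold in DESeq2. Leaving out a library ended the call for Nos2 (without replicate 1 or 2 of KO-TGF, -0.62 and -0.74), Cxcl5 (1 or 3 of KO-TGF), Vcam1 (2 of WT-TGF, 2 of KO-SD, 2 or 3 of KO-TGF), Lif (1 of WT-SD, 1 or 3 of WT-TGF, 1 of KO-SD, any of KO-TGF), Map3k14 (1 or 2 of WT-SD, 3 of WT-TGF, 3 of KO-SD, any of KO-TGF) and Bcl3 (9 of the 12 libraries, each alone). The other targets with a difference, chosen here after their values were seen, were Ccl2 (-0.19), Ccl7 (-0.17), Saa3 (-0.28), Cd44 (-0.12) and Gadd45b (0.17). Cx3cl1 rose more in KO (0.34), and Csf1 fell by 0.49 on the log2 scale in WT but not in KO (difference 0.54), where its value of 0.05 became -0.15 with total counts.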

How the results depend on the processing

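The counts of members lower in KO against WT stayed at 9 under all alternatives tried except total counts as library sizes, which gave 10. Of 11527 tested genes, 4191 in SD and 5406 with TGF-β were lower in KO under total counts. That scaling changed the TGF-β counts most, to 2 members up and 5 down in WT and 2 up and 6 down in KO, since it moves the median of all genes down. The 2 members with a different TGF-β response in KO became 0 with total counts, 0 with no filter and 1 with a CPM filter, and 1 to 3 when a library was left out. With total counts the log2 fold change with TGF-β turned to -0.0626 for Nfkb2 and -0.0022 for Ikbkg in WT, and to -0.0332 for Nfkb1, -0.17 for Rela, -0.18 for Ikbkb and -0.10 for Ikbkg in KO, and the difference of responses of Chuk turned to -0.0411. Values near 0 changed sign elsewhere: Rela in WT with no filter (0.0030), the difference of responses of Chuk with no filter (-0.0118) and with a CPM filter (-0.0011), and in DESeq2 those of Nfkb1 (0.0147) and Tnfaip3 (0.0101). When a library was left out, the TGF-β value of Ikbkb in KO ranged from -0.0063 to 0.0492, Chuk in KO-TGF against WT-TGF from -0.0443 to 0.0033, and the difference of responses from -0.0387 to 0.0294 for Nfkb1, -0.0263 to 0.0614 for Chuk and -0.0437 to 0.0356 for Tnfaip3. The cause of these changes was not tested. Replicate numbers are only shared numbers. With them as a replicate block the counts were 5 up and 3 down with TGF-β in both genotypes, 9 lower in KO in both conditions and 2 with a different response, as without it. The longest transcript in place of the exon union moved 39 of 40 RPKM levels by more than 1 SD. Every value of a member rests on 166 or more counts in a library.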
